A study of Mus musculus with 17 samples.

Results

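Beta cells that survived a high dose of streptozotocin (STZ) were examined 6 and 12 days after the injection and compared with beta cells of control mice. A cell was taken as a beta cell when its normalised value of Ins2, the main insulin gene of the mouse, was at least 3000 per 100000 UMIs and at least 3 times that of each of Gcg, Sst and Ppy, and when Prss2, a trypsinogen of acinar cells, was below 1500. UMIs are unique molecular identifiers, which count original RNA molecules. The rule took 418 of the 1233 cells in 6 libraries: 209, 129 and 21 in the 3 control libraries, 25 at day 6, and 10 and 24 in the 2 libraries of day 12. The 59 beta cells after STZ were thus set against 359 control cells. Over the whole series of 17 libraries the same rule took 910 of 2999 cells.

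All mice were adult Ngn3-Cre; Rosa-RFP males, in which Cre driven by the endocrine progenitor gene Ngn3 switches on the red fluorescent protein RFP, and RFP-positive cells of the pancreas were sorted and picked singly. STZ was given once at 2 months of age, at 200 mg/kg into the peritoneum after an overnight fast, and controls of the same age received only the citrate buffer. The STZ_D6 and STZ_D12 mice are labelled as carrying insulin implants and the controls are not, so effects of STZ and of implanted insulin cannot be told apart here. The label D6 was read as day 6, although the series text also calls it day 1. Nothing in the labels says whether replicate libraries came from separate animals, so p-values measure only the spread between these libraries. The purpose named by the study was to describe endocrine cells after STZ by their transcriptomes. The sort selects for the red label and not for insulin.

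STZ is a glucose analogue joined to an alkylating group. It enters mouse beta cells through the glucose transporter GLUT2, encoded by Slc2a2, and methylates their DNA, which draws on the repair enzymes and on NAD and can activate the tumour suppressor p53. A mature beta cell imports glucose, breaks it down, makes ATP in its mitochondria, closes its potassium channels, admits calcium and releases insulin granules. The genes below are ordered along that path, followed by the genes of damage and stress and those of immature endocrine cells.

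Summed over the beta cells of a library, the data held between 573232 UMIs (day 12 replicate 1) and 13411734 UMIs (control replicate 1). The median beta cell of each library held between 53884 and 69993 UMIs. Levels are CPM, a gene's UMIs as a share of the beta-cell UMIs of its library, scaled to the usual common total and by TMM factors. The list of beta-cell genes, which includes Ins2, summed to 247197 to 268520 CPM in controls and to 151003 to 237652 CPM after STZ. Genes that mark other cells were checked in the same sums. Of 8 tested genes of the alpha-cell list 1 passed the test, as did 2 of 5 of the delta list, 1 of 4 of the PP-cell list and 0 of 26 of the acinar list, all of them higher after STZ. Over all 9349 genes tested, 0.877% were called higher. The lists include Gcg, Sst, Ppy and Prss2, which helped to choose the cells, and Sst is 1 of the 2 delta genes. With the labelled batch as a block, 7 of the 26 acinar genes and 3 of the 4 PP genes rose, with medians of 1.44 and 2.55 against 0.38 and 1.70 without it, and 1 delta and 0 alpha genes did. Over all genes, 55 of 9349 were called higher with the block. Control replicate 3 is alone in its batch number and adds nothing to the comparison in that fit. Ppy, which helped to choose the cells, is 1 of those 3 PP genes. Without control replicate 3, 2 acinar and 3 PP genes rose, beside 50 of 10024 genes tested. The summed level of the alpha list was 4741 to 10488 CPM in controls and 5408 to 6207 CPM after STZ, and that of the acinar list was 8926 to 51996 CPM in controls and 30205 to 42896 CPM after STZ. The delta list was higher after STZ (983 to 6443 CPM, against 298 to 336 CPM), and the top value belonged to day 12 replicate 1, where 1 of 10 cells held 68.5% of the normalised Sst. Of the delta list, Sst alone made up 504 CPM at day 6, 5791 and 569 CPM at day 12, and 222 to 231 CPM in controls. The PP list also stood highest there, at 12877 CPM against 965 to 4228 CPM in controls. Immune genes summed to 89.5 to 231 CPM in controls and 123 to 469 CPM after STZ, and endothelial, stromal and blood-cell genes to 3.52 to 9.40 and 9.58 to 26.7 CPM. The part of these cells or of free RNA in the results was not tested. Each of the 2999 cells had a read file and a name of its own. The read files of 5 libraries have a leading code in their names, which differed between those libraries except that 13 of the 25 beta cells of day 6 had the code of control replicate 2. The file names of day 12 replicate 2 carry no such code. The lowest member had an Ins2 value of 3379 and the highest cell just short of the minimum 2500, and the lowest ratio of Ins2 to the highest other hormone was 3.27 among members, beside 2.88 for the highest cell that missed this ratio alone. The ratio alone left out 16 STZ cells beside 59 kept, and 24 control cells beside 359 kept, so it removed a larger part of the STZ cells.

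Beta cells were a smaller share of the collected cells in every STZ library than in any control. They made up 70.8% (95% exact interval 65.3% to 76.0%), 47.8% (41.7% to 53.9%) and 95.5% (77.2% to 99.9%) of the cells in control replicates 1, 2 and 3. At day 6 the share was 10.2% (6.69% to 14.6%), and at day 12 it was 4.59% (2.22% to 8.27%) and 13.2% (8.64% to 18.98%). The highest share after STZ thus lay below the lowest control. The mean was 9.31% ± 4.36 after STZ and 71.4% ± 23.8 in controls (SD, n = 3 each), a difference of -62.0 percentage points with an exact two-sided permutation p of 0.1, the smallest that 3 libraries against 3 allow. Among cells rich in any of the 4 islet hormones the shares were 20.2%, 9.62% and 22.4% after STZ, and 81.3%, 66.5% and 95.5% in controls. These shares describe cells chosen by fluorescence and by hand, and the intervals cover counting error only. Cells that lost Ins2 below the minimum would leave the count, so fewer beta cells and less insulin RNA per cell cannot be told apart.

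**Figure D1:**
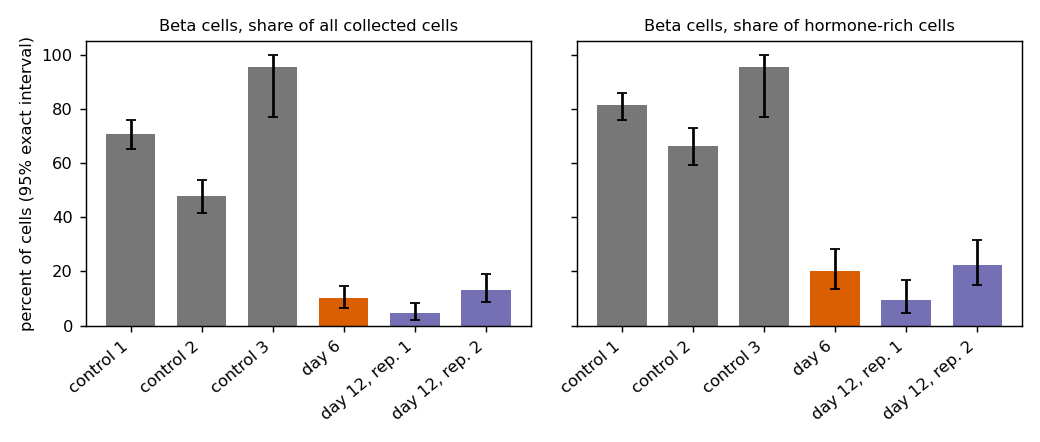
Share of beta cells among all collected cells (left) and among cells rich in Ins2, Gcg, Sst or Ppy (right), in percent, for each library; bars are the shares and lines the 95% exact intervals. The 3 STZ libraries lie between 4.59% and 13.2% of all cells, below the lowest control at 47.8%.

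Within the surviving beta cells, 131 of 9349 genes tested were called at an adjusted p under 0.05, which is 1.4% of the genes, with 82 higher (0.877%) and 49 lower (0.524%) early after STZ. Fold changes are given on the log2 scale with the standard error derived from edgeR's quasi-likelihood F test, and adjusted p-values are by Benjamini-Hochberg over all genes tested. The median over all genes was -0.01. All 131 called genes had 3 STZ libraries on the same side of all 3 controls. Over all genes tested, 8.94% were higher in every STZ library than in every control and 9.37% were lower. The counts of called list members below stand beside 0.877% of all genes called higher and 0.524% called lower. Sst, which helped to choose the cells, is among the 131. The count was 38 without control replicate 2, 57 without day 12 replicate 2, 66 without control replicate 1 and 77 without control replicate 3. Without day 12 replicate 1, the library high in delta and PP genes, it was 126.

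The transporter through which STZ enters fell. Slc2a2 (chromosome 3, 28697903 to 28731359, plus strand, mouse GRCm38) stood at 615, 527 and 479 CPM in control replicates 1, 2 and 3. It stood at 105.4 CPM at day 6 and at 57.2 and 119.9 CPM in the replicates of day 12. The groups did not overlap, and the gene fell by 2.48 ± 0.25 (5.58-fold lower, adjusted p = 0.000217). Within the read file code that day 6 shared with control replicate 2, the levels were 45.5 CPM at day 6 and 534 CPM in the control.

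A second sugar transporter was higher. Slc5a10, a sodium-coupled sugar transporter better known from kidney (chromosome 11, 61672781 to 61720826, minus strand), was at 1.56, 1.04 and 0 CPM in the controls, from 29 UMIs in all. It reached 106 CPM at day 6 and 246 and 111 CPM at day 12. The rise of 6.92 ± 0.49 (adjusted p = 2.59e-05) was the largest fold change upward among the called genes, and alpha-like cells of the same libraries held 0 UMIs of it. Slc5a10 passed the filter on low counts only through the STZ libraries, so a rise was the only change that could be found. In day 12 replicate 1, 3 of 10 cells had it, and 1 cell held 51.9% of its UMIs. Exons of Slc5a10 overlap Fam83g and Grap on the opposite strand, and the counting is not stated to use strand.

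Of 20 tested genes of sugar entry and glucose sensing, 2 rose and 3 fell, with a median of 0.17. Slc5a10, which could only rise, is among those that rose. The number that fell was 1 with the block, with limma, and without any 1 control or day 12 replicate 2, and the median was -0.11 without day 12 replicate 1 and -0.02 under the stricter cell rule, which asks for a higher Ins2 ratio and less Prss2. G6pc2 and Pcx were among those that fell. G6pc2, a glucose-6-phosphatase of the islet, stood at 4566, 3254 and 4062 CPM in controls, and at 1665 CPM at day 6 and 311 and 1078 CPM at day 12. It fell by 1.95 ± 0.42 (adjusted p = 0.0343), but the call was lost without any 1 control library (adjusted p 0.105 to 0.124) or without day 12 replicate 2 (0.118), and with the labelled batch as a block (0.0813). Pcx, the pyruvate carboxylase that feeds the beta-cell mitochondrion, went from 81.8, 76.6 and 74.4 CPM to 16.4, 36.2 and 30.1 CPM (log2 -1.55 ± 0.31, adjusted p = 0.0248). That call too was lost with the block (0.0708) and without any 1 control (0.0701 to 0.133), day 6 (0.0693) or day 12 replicate 2 (0.0743).

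Of the insulin genes, Ins2 chose the cells and is only described. It took 10.2%, 10.6% and 10.3% of beta-cell UMIs in controls and 9.20%, 10.5% and 7.05% at day 6 and in day 12 replicates 1 and 2. Ins1, the second insulin gene, was at 89500.2, 87053 and 94559 CPM in controls and at 53568, 63025 and 36648 CPM after STZ. The groups did not overlap (log2 -0.82 ± 0.21), but the adjusted p was 0.0871. Ins1 passed with DESeq2 (0.0177), with all 17 libraries in the fit (0.0145), with totals that leave out the hormone genes (0.047), under the stricter cell rule (0.0475), without the filter on low counts (7.08e-05) and without day 12 replicate 1 (0.0218). It did not pass with limma (0.17), RLE size factors (0.109), the block (0.189), thinned cells (0.0716), day 6 without the cells of the shared read file code (0.211) or without any other library (0.124 to 0.279). Iapp, which encodes the co-secreted amylin, was at 51665, 50537 and 56831 CPM in controls and at 54679.7, 59325 and 44639.8 CPM after STZ, and the groups overlapped (adjusted p = 0.996).

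Genes that process and pack hormones moved in both directions. Of 26 tested, 4 rose and 3 fell, with a median of 0.12. Slc30a8, the zinc transporter that lets insulin crystallise in its granule, was at 877, 804 and 746 CPM in controls and 296, 118 and 280 CPM after STZ (log2 -1.78 ± 0.28, adjusted p = 0.00667). Ero1lb, an oxidase of the endoplasmic reticulum needed for the folding of proinsulin, was at 1413, 1609 and 1490 CPM and then at 617, 391 and 667 CPM (-1.42 ± 0.22, adjusted p = 0.00572). Sytl4, the granule protein granuphilin, fell by 1.63 ± 0.28 (adjusted p = 0.0106). Both Slc30a8 and Ero1lb kept their calls without each library in turn, but under the stricter cell rule Slc30a8 had an adjusted p of 0.0607. Sytl4 lost its call without control replicate 1 (0.0518) or 2 (0.0605).

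The genes of this list that rose were granins and enzymes common to many endocrine cells. Chgb, the granin chromogranin B, stood at 2230, 1814 and 1585 CPM in controls, at 5607 CPM at day 6 and at 6935 and 7054 CPM at day 12. Every STZ library was above every control, with a rise of 1.80 ± 0.20 (3.48-fold, adjusted p = 0.000549). Alpha-like cells of the libraries held 832 to 1256 CPM of it, below the beta cells after STZ. Pam, which amidates peptide hormones, went from 412, 459 and 413 CPM to 968, 1075 and 1173 CPM (1.32 ± 0.18, adjusted p = 0.00247). Vgf, a granin-like precursor, rose by 2.34 ± 0.38 (adjusted p = 0.00767), a call lost without control replicate 2 (0.0639) or day 12 replicate 2 (0.053). Scg3, a further granin, rose by 0.87 ± 0.18 (adjusted p = 0.0309), with an adjusted p of 0.131 with the block and up to 0.158 when control replicate 1, 2 or 3 or either replicate of day 12 was left out.

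Many genes of the mature beta cell fell. Of 26 listed, 19 were tested, 12 fell and 0 rose, and 15 had all STZ libraries below all controls, beside 0.524% and 9.37% of all genes tested. The median was -1.597. This list was compiled with earlier results of these data known. The number that fell was 8 without control replicate 2 or under the stricter cell rule, and 10 to 13 without any other library.

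Ucn3 (chromosome 13, 3940688 to 3945349, minus strand) encodes urocortin 3, a peptide that mature beta cells release with insulin and that acts on delta cells. It was at 923, 771 and 687 CPM in controls. Early after STZ it was at 97.9 CPM at day 6 and at 49.6 and 26.4 CPM at day 12. The gap between the groups was wide at both times, and Ucn3 fell by 3.77 ± 0.38 (13.6-fold lower, adjusted p = 0.000207). Trpm5, a cation channel that adds to the glucose response of the membrane, was at 125, 107 and 189 CPM in controls and at 10.3, 13.3 and 10.8 CPM after STZ (log2 -3.65 ± 0.32, adjusted p = 9.30e-05); one of its exons overlaps Tssc4 on the opposite strand. Cox6a2, the muscle-type subunit of cytochrome c oxidase, was at 323, 309 and 374 CPM in controls, at 50.6 CPM at day 6 and at 0 and 17.2 CPM at day 12 (log2 -3.71 ± 0.54, adjusted p = 0.0048). With DESeq2 (0.068) and limma (0.085) it did not pass.

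The other members that fell were Ppp1r1a, an inhibitor of protein phosphatase 1 (801, 778 and 706 CPM in controls; 354, 181 and 227 CPM after STZ), and Prss53, a serine protease (357, 257 and 427 CPM; 88.3, 97.3 and 121 CPM). Prlr, the prolactin receptor that drives beta-cell growth in pregnancy, fell from 856, 1239 and 733 CPM to 407, 202 and 348 CPM. Papss2, which makes the sulfate donor of the cell, fell by 1.597 ± 0.28. The calls of Prlr and Papss2 were lost without control replicate 2 (0.0814 each) or day 12 replicate 2 (0.0534 and 0.053). Slc2a2, G6pc2, Slc30a8, Ero1lb and Sytl4, described above, complete the 12.

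**Figure D2:**
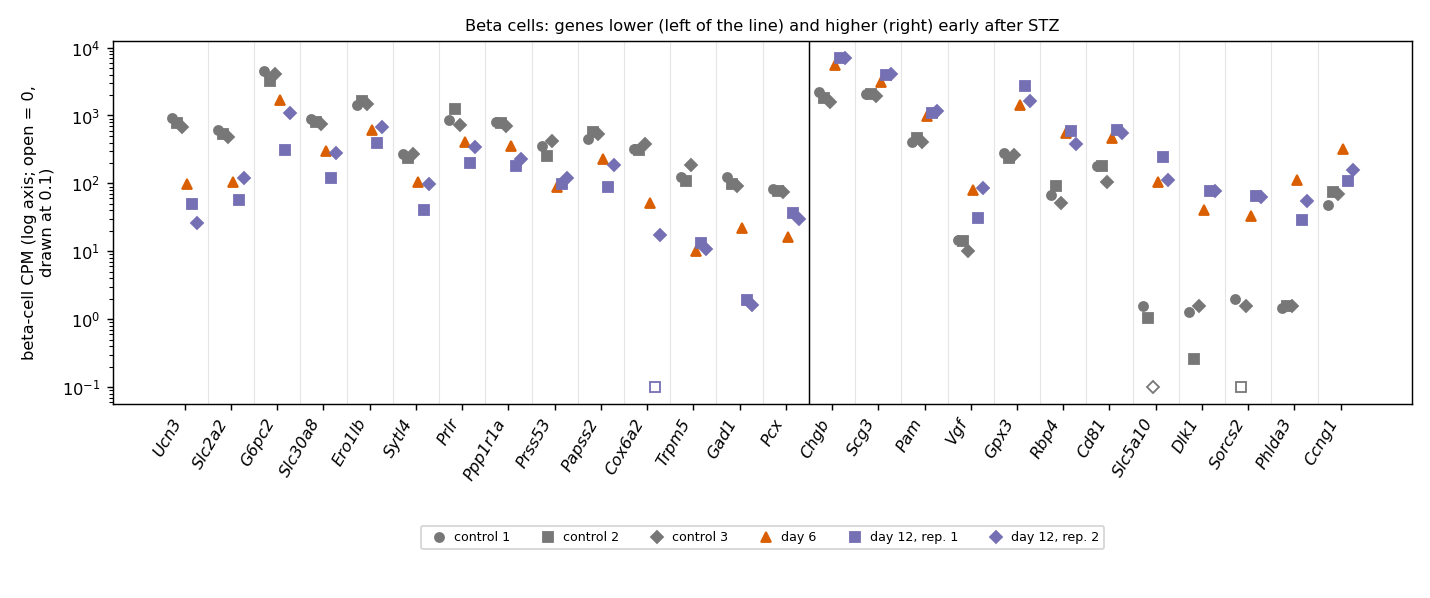
Level of 26 called genes in the beta cells of each library, in CPM on a log axis; grey marks controls, orange day 6 and purple day 12, and open symbols drawn at 0.1 stand for 0. Genes left of the line lie lower in all 3 STZ libraries than in all controls, such as Ucn3 (26.4 to 97.9 against 687 to 923 CPM), and genes right of it lie higher, such as Slc5a10 (106 to 246 against 0 to 1.56 CPM).

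Among channels, exocytosis proteins and receptors of the secretory response, 3 of 34 tested fell and 0 rose, with a median of -0.16. The number was 1 without control replicate 2 or under the stricter cell rule, and 2 without day 12 replicate 2. They were Trpm5, Prlr and Gad1. Gad1, the glutamate decarboxylase that makes GABA in beta cells, was at 125, 99.7 and 92.4 CPM in controls, at 21.9 CPM at day 6 and at 1.91 and 1.61 CPM at day 12 (log2 -3.50 ± 0.59, adjusted p = 0.00952); without control replicate 2 the adjusted p was 0.0616. The calcium pumps Atp2a2 (534, 760 and 762 CPM in controls; 452, 216 and 266 CPM after STZ) and Atp2a3 (214, 209 and 273 CPM; 119, 111 and 152 CPM) had groups that did not overlap but adjusted p-values of 0.0566 and 0.0729. Abcc8, the sulfonylurea receptor of the ATP-gated potassium channel, stood at 445, 493 and 442 CPM in controls and at 509, 694 and 523 CPM after STZ (adjusted p = 0.582).

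Of 21 tested islet transcription factors, 1 rose and 0 fell (median 0.05, and -0.07 to 0.27 over the left-out libraries). With the block, under the stricter cell rule, and without control replicate 2 or 3 or either replicate of day 12, 0 rose. Pdx1, the factor that maintains beta-cell identity, was at 177, 174 and 148 CPM in controls and at 129, 43.9 and 208 CPM after STZ (log2 -0.34 ± 0.36, adjusted p = 0.806). Nkx6-1, which keeps other islet programmes off, was at 195, 287 and 258 CPM and at 94.4, 78.2 and 191.9 CPM (log2 -0.99 ± 0.30, adjusted p = 0.147). Its groups did not overlap, and it passed without day 12 replicate 2 (log2 -1.50, adjusted p = 0.0264) and without the filter on low counts (0.00102). It did not pass with DESeq2 (0.0585), limma (0.158) or the block (0.129), under the stricter cell rule (0.452), or without any other library (0.187 to 0.523). Mafa had 0 UMIs in all 6 libraries, controls included, so nothing can be said of it.

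Among genes of the DNA damage response, few targets of p53 passed the test, while more of them lay above the controls in all 3 STZ libraries. Of 39 listed, 29 were tested, 2 rose and 0 fell, and the median was 0.64. All STZ libraries lay above all controls for 12 of them, beside 8.94% of all genes, and 13 were higher at an unadjusted p under 0.05, beside 6.56% of all genes. For Phlda3, Ccng1 and Cdkn1a, which are among the 12, 1 cell held 70.3% to 84.5% of the UMIs in day 12 replicate 2. The place of Ccng1 and Cdkn1a among the 12 thus leans on single cells. Phlda3 was found in 5 of the 24 cells of that library, against 7 of 209, 5 of 129 and 1 of 21 control cells. The spread over cells was not looked at for the other members of the 12. Phlda3 is among those that rose. It passed the low-count filter only through the STZ libraries, so a rise was the only change it could show. DESeq2 called 6 higher and limma 1. Without control replicate 1 or 2, day 6 or day 12 replicate 2, 1 was called, and without day 12 replicate 1, 3 were.

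Phlda3 (chromosome 1, 135766119 to 135769136, plus strand), a p53-induced inhibitor of the survival kinase Akt, was at 1.48, 1.56 and 1.57 CPM in controls, from 34 UMIs. It reached 112 CPM at day 6 and 28.6 and 55.4 CPM at day 12, so that every STZ library was above every control. The rise was 5.44 ± 0.52 (adjusted p = 0.000167). In day 12 replicate 2, however, 84.5% of its UMIs came from 1 of the 24 cells. Ccng1, a cyclin G induced by p53, was at 48.8, 74.4 and 68.9 CPM in controls and at 320, 107 and 159 CPM after STZ (1.63 ± 0.34, adjusted p = 0.0309). Its call was lost with the block (0.0994) and without control replicate 1 (0.15), 2 (0.133) or 3 (0.109), day 6 (0.118) or day 12 replicate 2 (0.0633), and 70.3% of its UMIs in that last library came from 1 cell. Cdkn1a, which encodes the cell-cycle inhibitor p21, was at 77.5, 51.1 and 185 CPM in controls, at 620.0 CPM at day 6 and at 301 and 207 CPM at day 12 (1.90 ± 0.45, adjusted p = 0.062). With the block the adjusted p was 0.00904, and without control replicate 3 it was 0.0237; 81.8% of the UMIs in day 12 replicate 2 came from 1 cell.

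Other p53 targets whose STZ libraries all lay above the controls, without passing the test, were Aen, a nuclease of apoptosis (18.4, 15.5 and 6.27 CPM in controls; 70.5, 30.5 and 44.1 CPM after STZ), and Sesn2, a sestrin that restrains mTORC1 (21.4, 23.3 and 32.1 CPM; 57.5, 68.7 and 45.2 CPM). Trp53inp1, a p53-induced nuclear protein, was at 22.9, 28.7 and 22.7 CPM in controls, at 110 CPM at day 6 and at 40.04 and 31.2 CPM at day 12. Mdm2, the ubiquitin ligase that p53 induces against itself, was at 52.6, 52.3 and 36.8 CPM in controls and at 65.7, 43.9 and 47.3 CPM after STZ (0.14 ± 0.28, adjusted p = 0.909). Bax, the pore-former of apoptosis, was at 103, 81.7 and 94.0 CPM and at 156, 83.9 and 116 CPM (0.37 ± 0.25, adjusted p = 0.638). Btg2 went the other way, at 296, 212 and 267 CPM in controls and at 121, 206 and 150 CPM after STZ (adjusted p = 0.187).

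Parts of the start regions of 5 of these genes are shown because 12 of the 29 tested lay above all controls in all STZ libraries. The p53 half-site, a 10-base motif searched on both strands by its name alone, was found between 250 bases before and 50 bases after the start in 11 of the 31 list members that have a start region in the RefSeq table for GRCm38.p6. It was in 27.3% of their 44 windows and in 8.36% of all 32851 windows of the same length. The sequences run 5′ to 3′ along the gene's strand, with the half-site in capitals.
Cdkn1a, chr17:29090918-29090947: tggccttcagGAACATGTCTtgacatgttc
Cdkn1a, chr17:29090896-29090925: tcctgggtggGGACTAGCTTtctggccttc
Ccng1, chr11:40755452-40755481: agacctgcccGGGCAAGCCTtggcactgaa
Aen, chr7:78895927-78895956: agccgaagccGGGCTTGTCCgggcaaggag
Mdm2, chr10:117710925-117710954: agtcggatagGAACTTGCCTagcgaccatt
Bax, chr7:45467080-45467109: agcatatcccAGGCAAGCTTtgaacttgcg
Phlda3, the member with the largest fold change, had no match in its window, while Mdm2 and Bax, whose groups overlapped, had one. A match is a string of letters in the window and says nothing of binding.

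**Figure D3:**
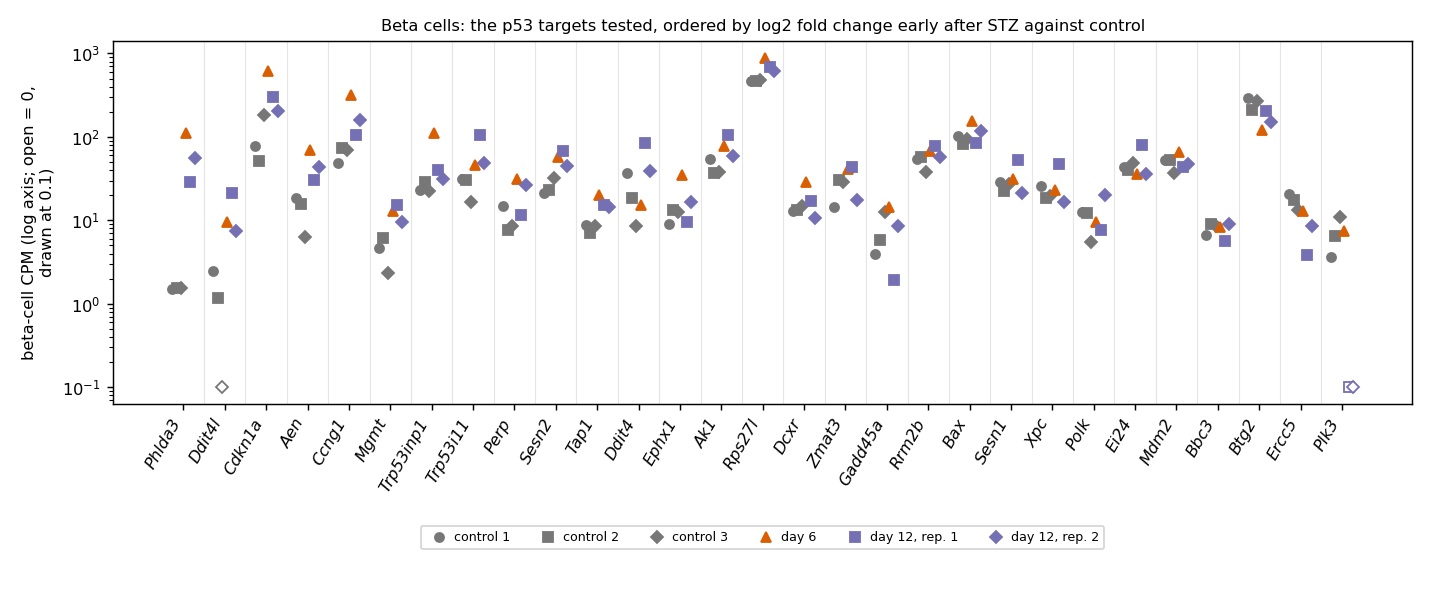
Level of the 29 tested p53 targets in the beta cells of each library, in CPM on a log axis, ordered from the highest log2 fold change to the lowest; open symbols at 0.1 stand for 0. The day 6 library is the highest of the 6 for Phlda3 (112 CPM), Cdkn1a (620.0 CPM) and Ccng1 (320 CPM), while Mdm2 overlaps between the groups.

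Genes that repair DNA or make NAD showed no call: 0 of 28 tested passed with edgeR, DESeq2 or limma, and 2 were higher and 2 lower at an unadjusted p under 0.05, beside 6.56% and 4.85% of all genes. Nampt, the rate-limiting enzyme of NAD salvage, was at 33.6, 31.4 and 43.9 CPM in controls and at 13.7, 20.98 and 22.04 CPM after STZ, which do not overlap (log2 -0.94 ± 0.35, adjusted p = 0.276). Mgmt, which removes methyl groups from guanine, was at 4.67, 6.13 and 2.35 CPM and at 13.0, 15.3 and 9.68 CPM (1.39 ± 0.58, adjusted p = 0.357). Trp53 itself was at 19.7, 16.7 and 18.0 CPM and at 40.4, 38.1 and 30.7 CPM (adjusted p = 0.197). Of 20 tested genes of cell death, 0 passed with edgeR, DESeq2 or limma, 2 being higher and 1 lower at an unadjusted p under 0.05.

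Genes against oxidants rose in 3 of 32 tested cases and fell in 0 (median 0.18), and in 1 case without control replicate 2 or day 12 replicate 2 or under the stricter cell rule. Gpx3, a secreted glutathione peroxidase, was at 279, 237 and 259 CPM in controls, at 1430.0 CPM at day 6 and at 2706 and 1626 CPM at day 12. The lowest STZ library was thus above the highest control, and the rise was 2.89 ± 0.25 (7.42-fold, adjusted p = 9.30e-05). Alpha-like cells held 4805 to 5865 CPM of Gpx3 in both conditions of the libraries with at least 11 such cells. Prdx4, a peroxiredoxin of the endoplasmic reticulum, rose by 1.34 ± 0.22 (adjusted p = 0.00848), a call lost without control replicate 2 (0.0814) or day 12 replicate 2 (0.0542). Txn1, the cytosolic thioredoxin, was at 235, 216 and 285 CPM and at 459, 477 and 391 CPM (0.85 ± 0.19, adjusted p = 0.0421), a call lost with the block (0.0739) and without any 1 library (0.0714 to 0.283).

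Txnip, the glucose-induced inhibitor of thioredoxin, was called at day 12. It was at 445, 303 and 295 CPM in controls and at 297 CPM at day 6, and at 1211 and 1418 CPM at day 12. Against controls, day 12 rose by 1.87 (adjusted p = 0.0028; 1.05% of 11164 genes were called at day 12), while day 6 gave -0.24 (adjusted p = 0.966). The difference of day 6 from day 12 was -2.12 ± 0.36, with an adjusted p of 0.188, and thus did not pass. Arrdc4, the arrestin-domain relative of Txnip, was at 11.6, 9.38 and 10.96 CPM in controls and at 41.7, 34.3 and 35.5 CPM after STZ (1.81 ± 0.35, adjusted p = 0.0219), with the call lost under the block (0.0881) and without any 1 library other than day 12 replicate 1 (0.0603 to 0.143).

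Of 30 tested genes of the unfolded protein response, 0 rose and 1 fell, the oxidase Ero1lb, and the median was 0.01, with -0.12 to 0.09 over the left-out libraries. Hspa5, the chaperone BiP, was at 1324, 1616 and 1840 CPM in controls and at 2355 CPM at day 6 and 1457 and 1574 CPM at day 12 (0.17 ± 0.22, adjusted p = 0.843). Of 26 tested targets of ATF4 and CHOP, which act when translation is restrained, 0 rose and 1 fell (median -0.19, and 0.10 without control replicate 3). The latter was Atf5, a relative of ATF4, with 100.5, 52.5 and 108 CPM in controls and 33.5, 19.1 and 16.7 CPM after STZ (log2 -1.88 ± 0.36, adjusted p = 0.0219), lost without control replicate 1 (0.117) or 3 (0.0924) or day 12 replicate 2 (0.105). Ddit3, which encodes CHOP, overlapped between groups, at 26.6, 18.6 and 68.1 CPM and at 65.0, 17.2 and 10.8 CPM; its exons overlap other gene models, among them Mars on the opposite strand.

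Genes listed as immature, progenitor or dedifferentiation genes rose in 9 of 22 tested cases and fell in 0, with a median of 1.76 (1.07 without day 12 replicate 1, the library high in delta and PP genes), beside 0.877% of all genes called higher. The list was compiled with earlier results of these data known, and members of it mark other islet cells. The number was 5 without control replicate 2, 6 under the stricter cell rule and 6 when the cells of the shared read file code were left out of day 6, and 7 to 9 without any other library. Dlk1 and Sorcs2 are among the 9 and passed the low-count filter only through the STZ libraries. A rise was thus the only change they could show. Without that filter, 14 of 29 members rose and 2 fell. Dlk1, a Notch-related protein of young endocrine cells, was at 1.26, 0.261 and 1.57 CPM in controls, from 21 UMIs, and at 40.4, 76.3 and 77.4 CPM after STZ (6.10 ± 0.55, adjusted p = 9.30e-05). Its UMIs sat in few cells: 81.4% of those at day 6 were in 1 cell, as were all of those in day 12 replicate 1. Sorcs2, a sorting receptor of the VPS10 family, was at 2.00, 0 and 1.57 CPM and at 33.5, 64.8 and 63.5 CPM (5.47 ± 0.73, adjusted p = 0.00247).

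Rbp4, a retinol carrier also high in delta and alpha cells, was at 66.6, 90.7 and 51.7 CPM in controls and at 556, 591 and 378 CPM after STZ (2.84 ± 0.25, adjusted p = 9.30e-05). Cd81, a tetraspanin of immature and stressed beta cells, was at 182, 181 and 103 CPM and at 470, 622 and 552 CPM (1.80 ± 0.23, adjusted p = 0.00219). Tspan8, another tetraspanin and a PP-cell marker here, rose by 2.46 ± 0.36 (adjusted p = 0.0048). Cd24a, a surface glycoprotein of progenitors, and Serpina7, the thyroxine-binding globulin, rose by 2.30 ± 0.37 and 2.16 ± 0.35, with calls lost without control replicate 2 (0.0677 and 0.0714). Gast, the hormone gastrin, was at 4.75, 1.82 and 1.57 CPM and at 18.5, 24.8 and 31.7 CPM (3.04 ± 0.56, adjusted p = 0.016), a call lost with the block (0.0739) and without control replicate 2 (0.119) or 3 (0.0512) or day 12 replicate 2 (0.113). Aldh1a3, a marker of dedifferentiated beta cells, was at 0.519, 9.38 and 8.62 CPM in controls and at 69.8 CPM at day 6 and 11.4 and 22.6 CPM at day 12 (2.69 ± 0.84, adjusted p = 0.172).

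More genes of energy metabolism lay above the controls in all STZ libraries than were called higher. Of 76 tested genes of oxidative phosphorylation 1 rose and 2 fell (median 0.14), beside 0.877% and 0.524% of all genes, and 20 were higher in all STZ libraries than in all controls, beside 8.94% of all genes. Ndufa1, an accessory subunit of complex I, was at 672, 658 and 717 CPM and at 1261, 1451 and 1441 CPM (1.02 ± 0.17, adjusted p = 0.00962), a call lost without control replicate 2 (0.0954) or day 12 replicate 2 (0.053). Of 24 tested genes of glycolysis and its glucose response, 4 rose, among them Gpi1, Pdk1 and Arrdc4, and 1 fell, Ldhb (median 0.28). Beside them stand 0.877% and 0.524% of all genes called higher and lower. Of these 24, 9 were higher in all STZ libraries than in all controls and 2 were lower, beside 8.94% and 9.37% of all genes. Pdk1, the kinase that closes pyruvate dehydrogenase, was at 19.4, 19.8 and 21.9 CPM and at 55.4, 87.7 and 83.9 CPM (1.89 ± 0.29, adjusted p = 0.00609), with 0.0533 without control replicate 2. Gpi1 (1.298 ± 0.24) and Ldhb (log2 -1.596 ± 0.31) lost their calls with the block (0.0763 and 0.0919) and without any 1 control (0.0618 to 0.114 and 0.0851 to 0.12) or day 12 replicate 2 (0.053 and 0.078), and Ldhb also without day 6 (0.0693). The number that rose was 1 without control replicate 2, and 2 with the block, under the stricter rule, or without control replicate 1 or 3 or day 12 replicate 2.

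Of 26 tested immediate early and heat shock genes, which also respond to the handling of cells, 0 rose and 1 fell, while 10 were lower in all STZ libraries than in all controls, beside 9.37% of all genes (median -0.67, and -0.40 without day 12 replicate 2). The one was Hspa1b, an inducible HSP70, at 8.53, 19.8 and 31.3 CPM in controls and at 2.74, 0 and 0 CPM after STZ, from 4 UMIs (adjusted p = 0.049; 0.178 with the block, and 0.0637 to 0.218 without any 1 library other than day 6). Of 18 tested genes of antigen presentation 1 rose and 0 fell (median 0.57). Of these 18, 8 were higher in all STZ libraries than in all controls and 1 was lower, beside 8.94% and 9.37% of all genes. H2-D1, an MHC class I heavy chain, was at 332, 267 and 360.3 CPM and at 503, 687 and 589 CPM (0.89 ± 0.20, adjusted p = 0.0421), with a call lost under the block (0.0872) and without any 1 library (0.0531 to 0.283). Of 25 tested genes of cell division 0 rose and 1 fell, Ccnd2, the D-type cyclin of beta cells, at 1852, 2007 and 2260.0 CPM and then at 910, 810 and 924 CPM (log2 -1.21 ± 0.18, adjusted p = 0.005). The list median was 0.98, and -0.06 without day 12 replicate 1. At an unadjusted p under 0.05, 7 were higher and 1 lower, beside 6.56% and 4.85% of all genes. In all STZ libraries, 0 were higher than in all controls. Without the filter on low counts, 14 of 38 rose and 1 fell. Mki67, the proliferation marker, was at 12.6, 4.43 and 0 CPM in controls and at 8.21, 195 and 1.61 CPM after STZ, and the high value came from 1 cell of day 12 replicate 1. Genes normally disallowed in beta cells could hardly be tested, as 2 of 19 had enough counts.

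**Figure D4:**
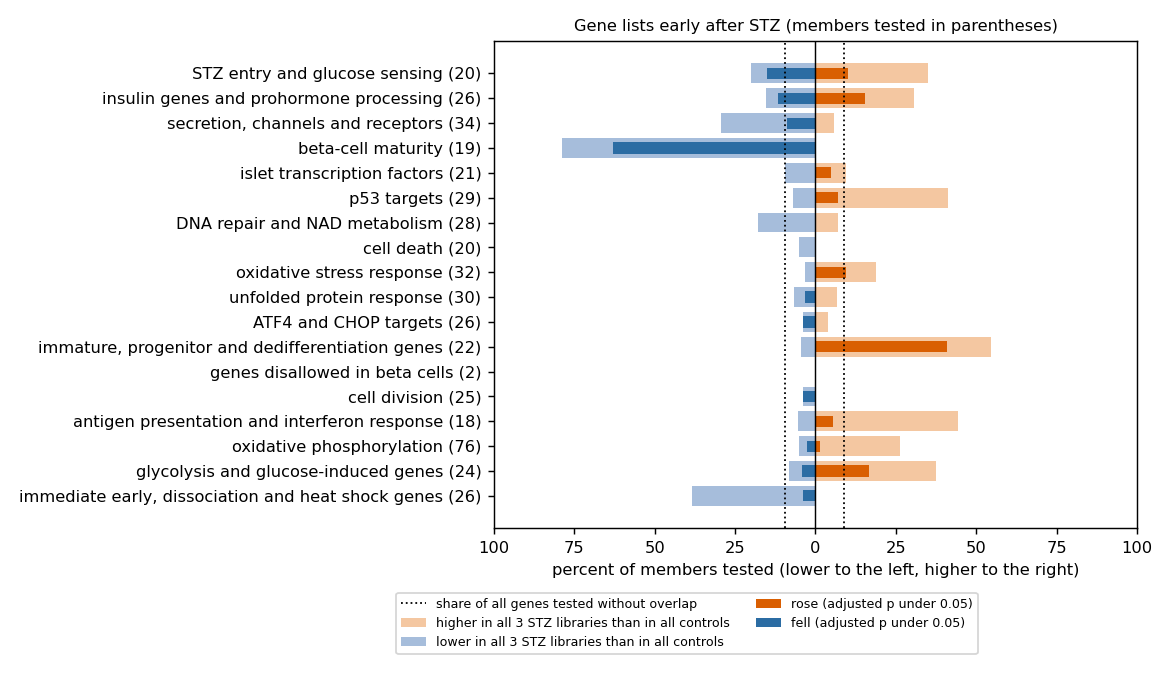
Share of the tested members of each gene list, in percent, that fell (dark blue, left) or rose (dark orange, right), and that lay lower (pale blue) or higher (pale orange) in all 3 STZ libraries than in all 3 controls; dotted lines mark the shares over all genes tested, 9.37% and 8.94%. Of the beta-cell maturity list 12 of 19 fell, and of the immature list 9 of 22 rose.

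Beyond the lists, the largest falls included T2, at 55.3, 45.2 and 29.8 CPM in controls and at 2.74, 1.91 and 0.538 CPM after STZ (log2 -4.77 ± 0.56, adjusted p = 0.000949), whose exons overlap other gene models. Emid1, an extracellular protein, was at 22.5, 33.6 and 28.2 CPM and at 0, 0 and 2.69 CPM, from 5 UMIs after STZ, a call lost without control replicate 2 (0.0814). Col6a3, a collagen VI chain, Tnfrsf9, the receptor 4-1BB, Adam32 and Bag2 had 8 to 29 UMIs each after STZ, with log2 fold changes of -3.20 to -2.53. Each of these 4 lost its call without 3 or more of the 6 libraries in turn, with adjusted p-values up to 0.18. An antisense gene model without a symbol of its own was also among the 12 largest falls.

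The largest rises included Dlc1, a GTPase-activating protein, with 48 UMIs after STZ and 2 in controls, a pooled ratio of 140 with a 95% counting interval of 36.7 to 1189. Sulf2, an enzyme that trims heparan sulfate, had 37 and 3 UMIs, a ratio of 71.9 (22.8 to 365). The intervals cover counting error only and not the spread between libraries. Both genes, like Slc5a10, Dlk1, Sorcs2 and Phlda3, were near 0 in all controls and passed the low-count filter only through the STZ libraries. For such genes a rise was the only change that could be found. Dlc1 lost its call without control replicate 2 (0.0775) or day 12 replicate 2 (0.0881), and Sulf2 without these (0.167 and 0.113) or without control replicate 1 (0.155). Tmie, a protein of the hair cell's transduction channel, was at 0.519, 1.303 and 0 CPM and at 20.5, 41.95 and 10.2 CPM, with an adjusted p of 0.0536 under the block and 0.0618 without control replicate 1. Scarf2, Cdhr2, Gpr179 and Tmem212 rose by 3.42 to 4.25 from 12 to 36 control UMIs. These 4 also lost their calls without 3 or more libraries, with adjusted p-values up to 0.281.

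Single cells show how the changes were spread. Each cell was thinned to 31258 UMIs to equalise depth, which kept 184, 120 and 19 control cells, 22 of day 6, and 9 and 22 of day 12. Ucn3 was detected in 98.9%, 97.5% and 94.7% of control beta cells and in 59.1%, 22.2% and 36.4% after STZ. Before thinning, 204 of 209, 125 of 129 and 20 of 21 control cells and 17 of 25, 2 of 10 and 10 of 24 cells after STZ had a UMI. In alpha-like cells, which should lack Ucn3, the share was 0% to 12%, from 1 to 37 cells a library. The median depth of alpha-like cells was 26975 to 47455 UMIs before thinning. The median cell went from 20 to 26 UMIs in controls to 1, 0 and 0.

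Slc2a2 was detected in 99.5%, 97.5% and 100% of control cells and in 45.5%, 44.4% and 68.2% after STZ, while alpha-like cells ranged from 0% to 31.6%. At day 6 the cells were uneven: the median was 0 UMIs, yet 1 cell reached 20 and 41.6% of all Slc2a2 UMIs before thinning lay in 1 cell. Slc5a10 was detected in 1.63%, 1.67% and 0% of control cells, the last from 19 cells, which allows up to 17.6%. After STZ it was detected in 54.5%, 33.3% and 54.5%, so it too was absent from the counts of many cells. Chgb and Gpx3 were higher in the median cell of every STZ library than of any control, with medians of 127.5, 140 and 182.5 UMIs for Chgb after STZ against 61.5, 50 and 41 in controls, and of 42.5, 79 and 59.5 for Gpx3 against 2, 1 and 4.

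Slc5a10 was found in cells with and without Ucn3. Of the 59 STZ cells, unthinned, 29 had Ucn3, 28 had Slc5a10, 12 had both and 14 neither. Among 359 control cells 349 had Ucn3 and all 10 with Slc5a10 also had Ucn3. Phlda3 was seen in 21 STZ cells, 11 of which had Ucn3, and in 6 together with Slc5a10. These counts depend on depth, and no test was made over cells, which share their libraries.

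**Figure D5:**
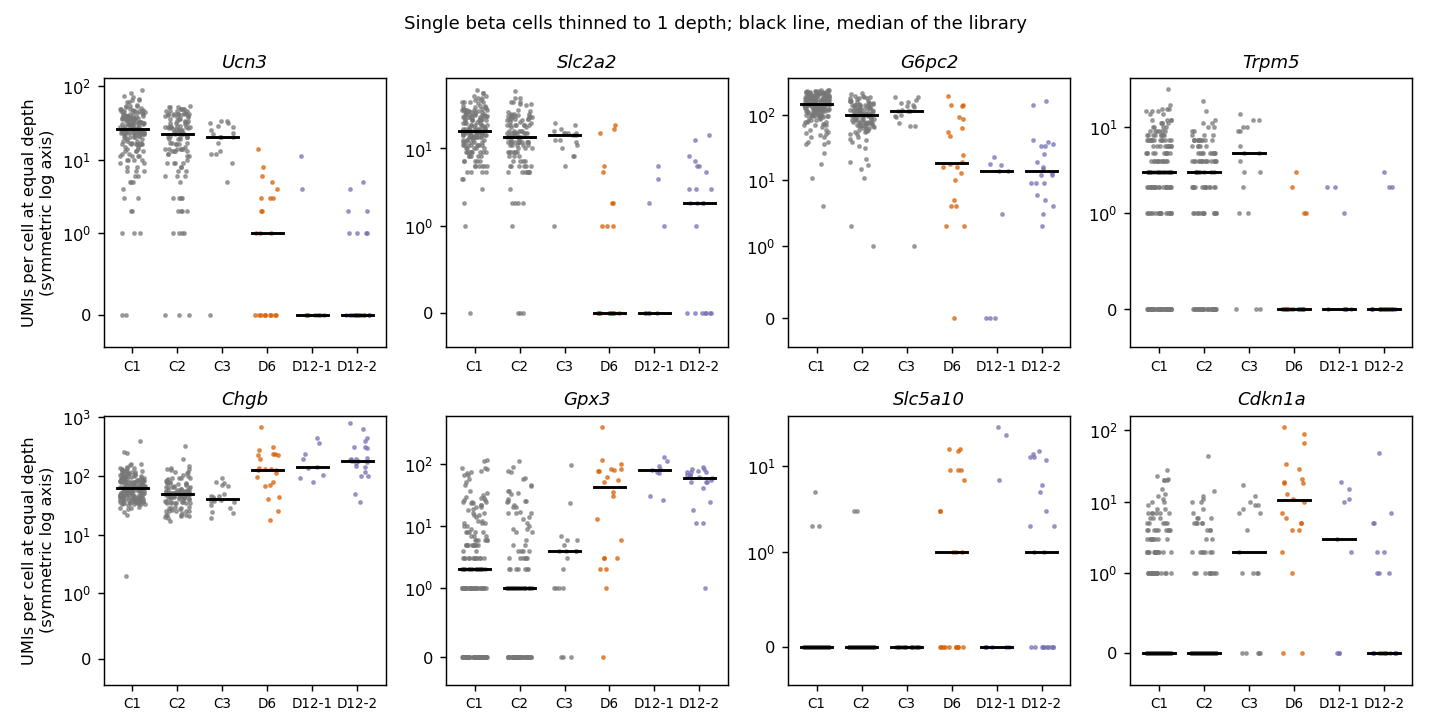
UMIs per beta cell after thinning to 31258 UMIs, on a symmetric log axis, for 8 genes in controls (C1 to C3), day 6 (D6) and day 12 (D12-1, D12-2); each point is a cell and the black line is the median of the library. For Ucn3 the medians are 26, 22.5 and 20 in controls and 1, 0 and 0 after STZ, and for Chgb they are 41 to 61.5 in controls and 127.5 to 182.5 after STZ.

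The times could be compared only in part, since day 6 has 1 library and is assumed to vary like the others. Against the same 3 controls, 117 of 11164 genes were called at day 12 (1.05%), with 70 higher (0.627%) and 47 lower (0.421%). At day 6 there were 16 (0.143%), with 13 higher (0.116%) and 3 lower (0.0269%). With the labelled batch as a block the counts were 416 and 112. Without day 12 replicate 2, 263 were called at day 12, and without control replicate 1 or 2 or day 12 replicate 1, 66, 31 and 76 were. For day 6 the count was 37 without day 12 replicate 1, 35 without day 12 replicate 2 and 10 without control replicate 2. In the fits with the block, control replicate 3 is alone in its batch number and adds nothing to either comparison. Because both comparisons share their controls, the values are only set side by side. Ucn3 fell by 3.03 at day 6 and by 4.53 at day 12, and Slc2a2 fell by 2.59 at day 12, with -2.37 at day 6 (adjusted p = 0.0569), while G6pc2 gave -1.26 at day 6 (adjusted p = 0.772) and -2.53 at day 12. Slc5a10 rose by 6.40 and 7.08, Gpx3 by 2.46 and 3.01, and Dlk1 by 5.42 and 6.32.

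Directly compared, day 6 and day 12 gave no gene at an adjusted p under 0.05 with edgeR (0 of 11164, 0%) or limma. DESeq2 called 4, the fit with the block 56, and 588 genes had an unadjusted p under 0.05. Among these were the p53 targets Phlda3, Ccng1 and Cdkn1a, higher at day 6 by 1.38 ± 0.47, 1.27 ± 0.36 and 1.34 ± 0.54, each with an adjusted p of 0.884. The median difference of day 6 from day 12 was 0.47 over 33 p53 targets and 0.71 over 30 targets of ATF4 and CHOP. It was 0.53 over 22 genes of beta-cell maturity, -1.03 over 37 genes of cell division and -0.04 over all genes. No test was made over lists. Since day 6 is 1 library, its time and the library itself cannot be told apart.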

How the data were processed

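Cells were prepared by a modified STRT-seq with 18 and then 4 cycles of PCR, per the labels' protocols. The authors deposited UMI counts of 40824 genes in 2999 cells, and signal values that equalled UMIs times 100000 over the cell's total without 8 hormone-related genes, within 0.005. The build mm10 and the tools UMI-tools 0.5.0, TopHat2 2.1.0, SAMtools 1.3.1 and featureCounts 1.5.3 are named in the submitters' processing notes; strand use, cell filters and doublet removal are not given in the sources used here, and no doublet caller was run.

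The signal values chose the beta cells, and their UMIs were summed per library. Libraries held 22 to 295 cells. Sums were compared with edgeR 4.0.16 in R 4.3.3 (TMM, filterByExpr, quasi-likelihood F test without robust estimation; Benjamini-Hochberg over all genes tested): 3 STZ against 3 control libraries, and day 6, day 12 and controls in 1 fit with 3 means. Standard errors were derived by dividing the size of the log2 fold change by the root of the F statistic. Shares were tested by exact permutation (SciPy 1.17.1, Python 3.11.15). The edgeR fit was tested on simulated data. Genes were named by rule: 22 fixed genes, the 12 largest called changes in each direction without overlap of the groups, called members of 18 gene lists, up to 2 further members a list, and calls between the times. Other genes named from the lists were chosen as examples after their values were seen. The members and lists were chosen with earlier results of these data known. Some genes that the rule names are not reported here.

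The labels give each library a batch number equal to its replicate number, which pairs control 1 with day 6 and day 12 replicate 1, and control 2 with day 12 replicate 2. Deviations from the group means correlated over genes by 0.12 and 0.10 for the 2 pairs with day 12. The 2 libraries of day 12 have equal and opposite deviations. Control 1 with day 12 replicate 2 and control 2 with day 12 replicate 1 therefore gave -0.12 and -0.10 by construction. The correlations thus cannot tell whether the number marks a shared batch. The fit with this replicate block is an alternative, with DESeq2 1.42.0, limma 3.58.1, other size factors, no filter on low counts, all 17 libraries, a stricter cell rule, thinned cells and each library left out. Leaving out the day 6 cells of the shared read file code was chosen after seeing the data. Gene positions are from GENCODE M21 (GRCm38).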

Additional observations from a re-analysis of the deposited data

How the results depend on the processing

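For early STZ against control, 131 genes were called, and the counts were 277 with DESeq2, 77 with limma, 445 without the low-count filter, 80 with all 17 libraries in the fit, 88 with the replicate block (68 of them among the 131) and 56 under the stricter cell rule. For day 12 they were 278 with DESeq2, 52 with limma, 481 without the filter, 76 with all 17 libraries, 48 under the stricter rule and 416 with the replicate block. For day 6 they were 48 with DESeq2, 5 with limma, 117 without the filter, 112 with the replicate block, 4 under the stricter rule and 28 with thinned cells. Day 6 against day 12 gave 4 with DESeq2, 45 without the filter, 56 with the block and 1 under the stricter rule. Leaving out each library gave 38 to 126 calls early, 31 to 263 at day 12, 10 to 37 at day 6 and 0 to 2 between the times. The share of higher calls early was 62.6%, and 50% with all 17 libraries. The difference in beta-cell share ran from -73.8 to -50.0 points over the left-out libraries, and had an exact permutation p of 0.167 with the replicate block.

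Of 58 named genes called, 19 were called under every alternative that tested them and 21 without each library in turn. The block ended 19 of these calls and made 1, that of Cdkn1a. The stricter cell rule ended 23, among them G6pc2 (adjusted p 0.265), Sytl4 (0.264), Prlr (0.107), Gad1 (0.0852) and Serpina7 (0.169). Among genes that did not pass, the sign turned for Iapp (0.013 with DESeq2, 0.013 with RLE factors, 0.0031 with the block, 0.047 with thinned cells, -0.094 to 0.10 over the left-out libraries), Mdm2 (-0.011 with the block, -0.069 to 0.24 over the left-out libraries), Ddit3 (0.11 with the block, -1.47 to 0.48), Pdx1 (-0.88 to 0.020), Hspa5 (-0.081 to 0.30) and Mki67 (-0.43 to 4.28). The cause was not tested.

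Calls of rarely counted genes were lost as follows, with the adjusted p of each. Adam32 lost its call without control replicate 2 (0.0861), 3 (0.078) or day 6 (0.08), and Bag2 without control replicate 1 (0.108), 3 (0.0714) or day 12 replicate 2 (0.0971). Without control replicates 1, 2 and 3 and day 12 replicate 2 the values were 0.155, 0.12, 0.113 and 0.134 for Col6a3, and 0.18, 0.114, 0.0962 and 0.0528 for Tnfrsf9. Without day 6 they were 0.0531 for Col6a3 and 0.112 for Tnfrsf9. Scarf2 was lost without control replicate 1 (0.0768), 2 (0.0814) or day 12 replicate 2 (0.124), and Cdhr2 without control replicate 1 (0.145), 2 (0.21) or 3 (0.078). Gpr179 and Tmem212 were lost without any 1 library (0.0814 to 0.187 and 0.0763 to 0.281).

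Depth limits the STZ libraries: 3 UMIs correspond to 1.61 to 5.72 CPM there and to 0.223 to 2.35 CPM in controls, and 10 to 25 cells stand behind each STZ level.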
